A study of Mus musculus with 64 samples.

Results

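Microglia lacking the Rieske iron-sulfur protein (RISP) were compared with microglia heterozygous for its loss, after both had been depleted with PLX3397 and allowed to repopulate the brain. PLX3397 is an inhibitor of CSF1R, the receptor that microglia need to survive, and repopulation is the return of microglia once the drug is withdrawn. The 8 libraries were chosen by their labels: 4 adult RISP KO and 4 adult RISP Het libraries after PLX3397 repopulation, of 64 libraries in all. The 4 RISP WT libraries of the same treatment and age group were fitted with them, to add to the estimate of the spread, and are given as levels only. Every library held total RNA from CD11b and CD45.2 stained cells sorted from whole brain, so other CD11b-positive cells of the brain can pass the same gate. The labels name neither the Cre driver and its induction, the drug dose, the days of repopulation nor the sex. They do not say whether numbered replicates came from separate mice, so the p-values measure the spread between these libraries.

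RISP, encoded by Uqcrfs1, is the iron-sulfur subunit of respiratory complex III, the enzyme that passes electrons from coenzyme Q to cytochrome c. Without it complex III cannot turn over, and the electron flow from complexes I and II has no exit. Cells with a failing respiratory chain are known to switch on the integrated stress response, in which phosphorylation of eIF2 alpha slows translation while the factors ATF4, ATF5 and CHOP raise genes of amino acid synthesis, amino acid import and tRNA charging. Repopulating microglia divide from surviving cells and then regain the homeostatic gene set.

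The 12 repopulation libraries held 11.6 to 16.3 M (mega) counts each. Genes of the Y chromosome put KO 1, Het 1, Het 2, Het 3, WT 1 and WT 2 as female and the other libraries as male, so that sex was unequal between KO (1 female of 4) and Het (3 of 4), and the comparison of KO with Het after repopulation was also fitted with sex as a covariate; the comparison with naive mice was not. KO and Het did not differ detectably in total counts (exact two-sided permutation test, p = 0.657). Counts of mitochondrial DNA genes made up 3.55% to 4.09% of a KO library and 2.17% to 2.87% of a Het library, and the non-coding RNAs Gm26917 and Yam1 together made up 0.195% to 0.276% and 0.0897% to 0.180%. Both shares were separate between the groups (exact permutation p = 0.0286 each, the smallest that 4 against 4 allows, 0.0571 after adjustment over 4 measures). Microglial genes were abundant in all 12 libraries, with 20 of 20 homeostatic markers measured.

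Uqcrfs1 itself lay at 9.02, 6.6, 6.41 and 10.7 CPM, the gene's counts scaled to library size, in KO 1 to KO 4 and at 29.2, 29.4, 29.2 and 35.2 CPM in Het 1 to Het 4. WT libraries held 46.9 to 64.4 CPM, above every Het library, and no KO library reached the lowest Het library. Its transcript fell in KO (log2 fold change -1.91 ± 0.17, adjusted p = 1.33e-05). The gene lies at chr13:30540308-30545362 on the minus strand (GRCm38, GENCODE vM21), and the remaining KO counts were not assigned to exons here. The table also holds the transgenes CreERT2 and tdTomato, which were read in every one of these libraries, controls included. CreERT2 fell in KO (log2 fold change -0.49 ± 0.15, adjusted p = 0.0466), tdTomato gave -0.09 ± 0.13 and Cx3cr1, the fractalkine receptor gene of microglia, gave 0.13 ± 0.10, neither passing.

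Of 13388 genes tested, 1938 (14.5%) passed an adjusted p of 0.05 between KO and Het: 919 were higher in KO (6.86% of all genes tested) and 1019 were lower (7.61%). These 3 shares are the background for every count below, and the median gene stood at a log2 fold change of -0.01. KO and Het CPM ranges did not overlap for 2774 genes (20.7%). All values are CPM after edgeR's TMM scaling, folds are log2 of KO over Het with their standard error (SE), and adjusted p values come from edgeR's quasi-likelihood test with Benjamini-Hochberg adjustment over all genes tested. Leaving out any one KO or Het library gave 1437 to 1727 genes.

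**Figure D1:**
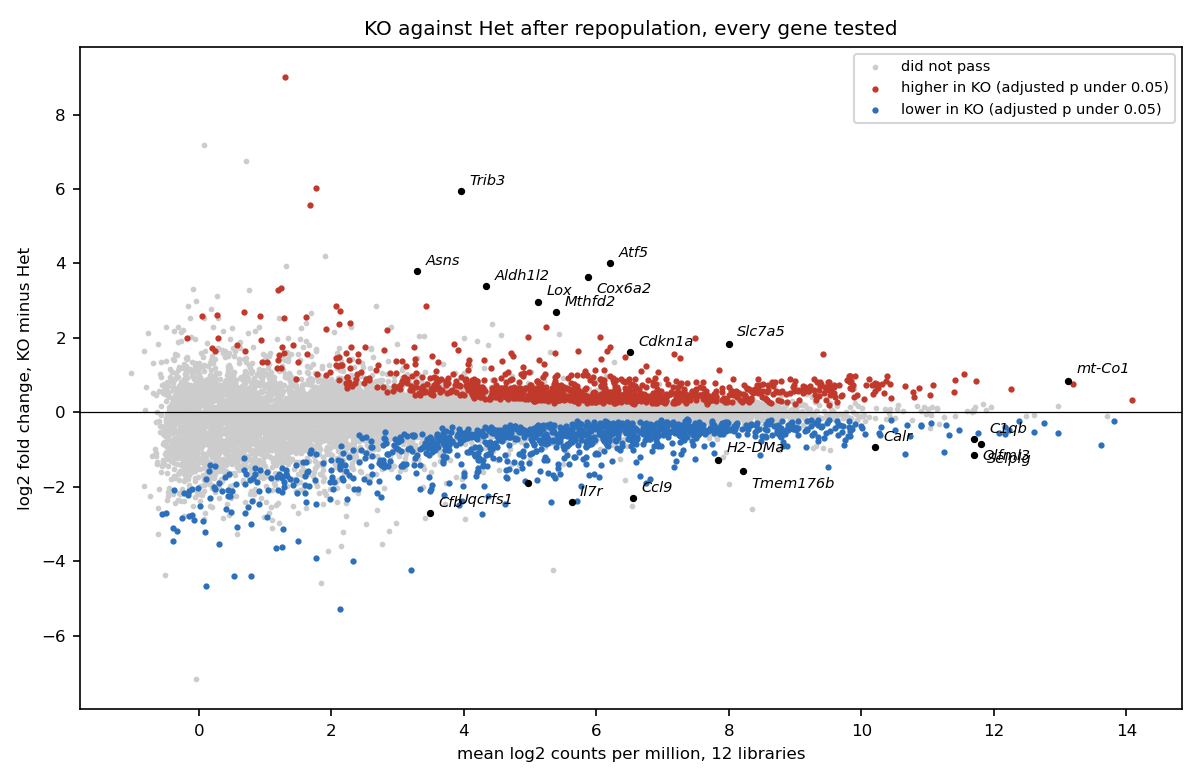
Log2 fold change of KO over Het (y axis) against mean log2 CPM over the 12 repopulation libraries (x axis), one point per gene tested, red and blue for the 919 genes higher and the 1019 genes lower in KO at an adjusted p under 0.05 and grey for the rest; black points are named in the text. The stress genes Trib3, Atf5, Asns and Aldh1l2 stand above 3, and abundant microglial genes such as Selplg and Olfml3 lie below 0.

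Genes of the integrated stress response were among the largest rises. Atf5, a transcription factor that raises mitochondrial chaperones, lay at 259, 167, 179 and 179 CPM in the 4 KO libraries and at 10.5, 12.5, 11 and 14.4 CPM in the Het libraries. KO 1 was the highest, and all KO libraries lay far above all Het libraries (log2 fold change 4.02 ± 0.18, adjusted p = 7.00e-08). Exons of Atf5 overlap those of Nup62 and Il4i1 on the other strand. Nup62 gave 1.14 ± 0.23 (adjusted p = 0.00532), and the value of Il4i1 is not given here. Whether the authors' counting used the strand is not given in the sources used here. Trib3, a pseudokinase that is an ATF4 and CHOP target, lay at 20.8, 46.2, 53.5 and 57.8 CPM in KO and at 0.777, 0.164, 0.618 and 1.3 CPM in Het. KO 1 was the lowest of the KO libraries and still far above every Het library (log2 fold change 5.94 ± 0.56, adjusted p = 3.14e-05). Trib3 in Het 2 lay below the level of 3 counts (0.246 CPM there), so the size of its fold is uncertain. Chac1, which degrades glutathione, was read at 3.41, 8.92, 6.97 and 17.6 CPM in KO and at 0.233, 0, 0.0687 and 0.229 CPM in Het, where 3 counts correspond to 0.206 to 0.246 CPM, so no fold is given for it.

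Of 20 integrated stress response regulators and effectors measured, 9 rose and 1 fell, against 6.86% and 7.61% of all genes, with a list median of 0.25; 2 fell without Het 3 or under DESeq2's scaling, and 3 with sex as a covariate. The stress hormone Gdf15 lay at 6.6, 7.03, 11.5 and 11.7 CPM in KO and 0.544, 0.984, 0.344 and 3.21 CPM in Het without overlap (log2 fold change 2.85 ± 0.59, adjusted p = 0.00656). Sesn2, a leucine-sensing inhibitor of mTORC1, was lower in KO 1 than in the other KO libraries (31.5, 67.2, 77.2 and 72.1 against 15.6, 17.5, 10.7 and 17.9 CPM in Het; log2 fold change 2.01 ± 0.25). Eif4ebp1, the translation repressor 4E-BP1, rose by 1.41 ± 0.13, and Nupr1, Cebpg and Ddit3 (CHOP) rose by 0.83, 0.56 and 0.75. The member that fell was Eif2ak2 (PKR), the eIF2 alpha kinase that interferon induces and double-stranded RNA activates (log2 fold change -0.72 ± 0.15, adjusted p = 0.00639). Atf4 transcript, whose protein is controlled mainly by translation, gave 0.50 ± 0.23 (adjusted p = 0.174), and its libraries overlapped at 87.6 to 152 CPM in KO and 68.3 to 126 CPM in Het. The other kinases Eif2ak1, Eif2ak3 and Eif2ak4 and the protease gene Oma1 did not pass.

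**Figure D2:**
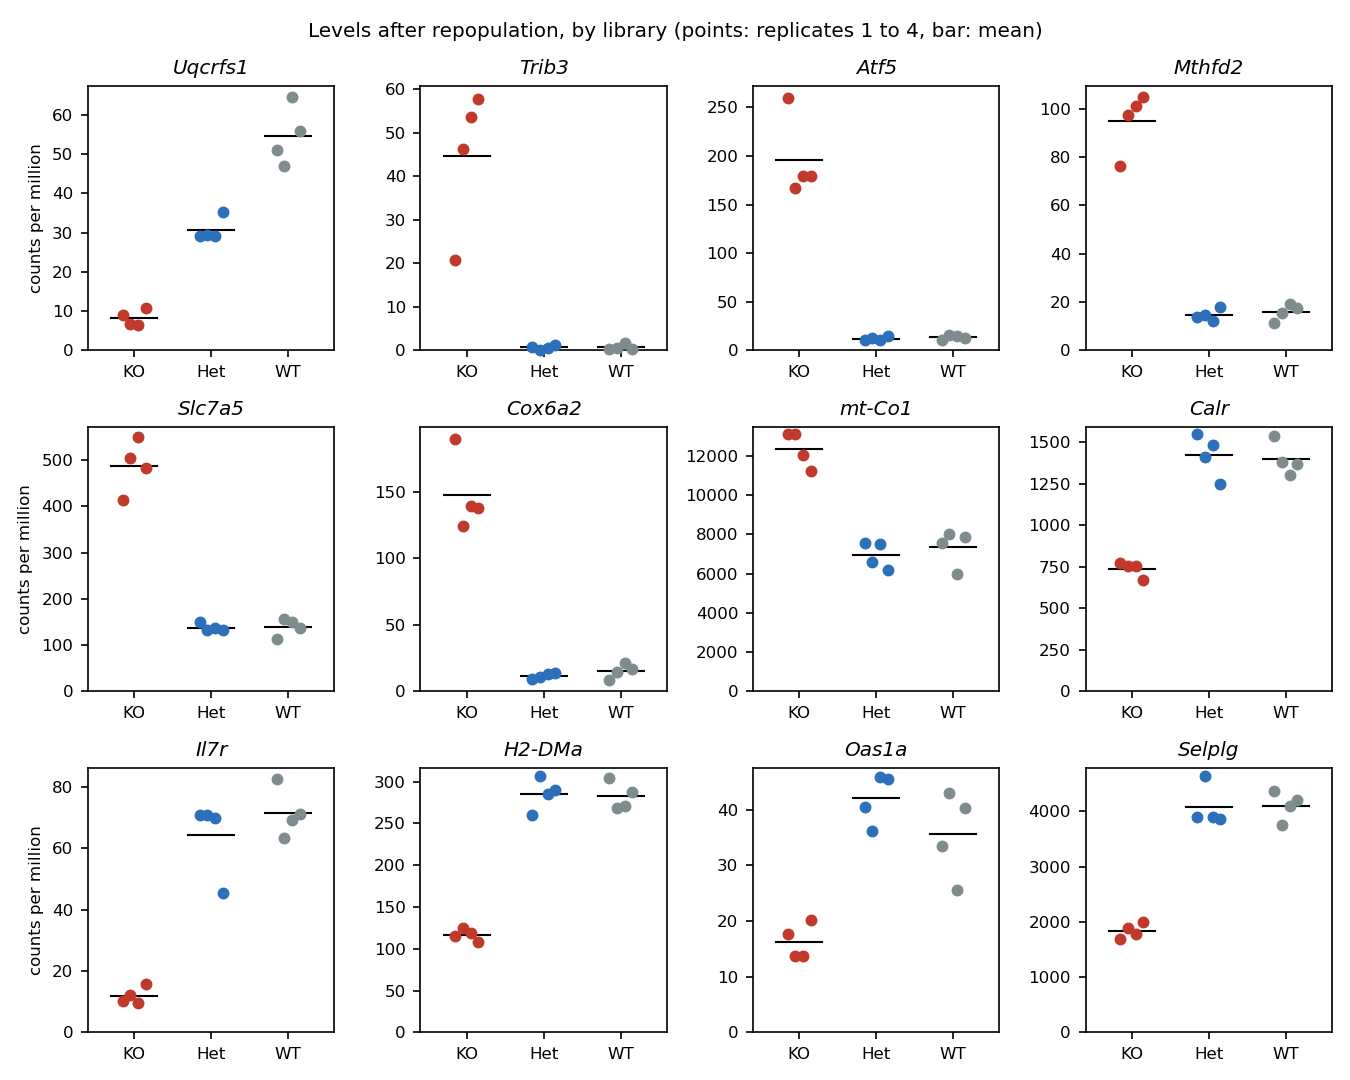
CPM (y axis, from 0) of 12 genes in each KO, Het and WT repopulation library, one point per library with a bar at the group mean. In all 12 genes the 4 KO points lie apart from the 4 Het points, with Uqcrfs1, Calr, Il7r, H2-DMa, Oas1a and Selplg lower and the other 6 genes higher in KO.

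ATF4 and its partners bind a composite element, and promoters of the risen genes were searched for one spelling of it, TGATGNAA on either strand, in the 250 bases before each gene's start (RefSeq promoters, GRCm38.p6). It occurred in 3.91% of 27025 genes with a promoter entry. Among the 41 genes that rose in the 4 lists of stress regulators, serine and one-carbon enzymes, amino acid supply and tRNA synthetases, 33 had an entry and 8 of them held a match (24.2%): Nupr1, Chac1, Asns, Got1, Slc7a11, Aars, Gars and Tars. Among the 29 members of the same lists that did not pass, 22 had an entry and 3 held a match (13.6%). The stretches below come from 4 of the risen genes, chosen for lying outside annotated exons, and are written on the gene's own strand with the matched 8 bases in capitals. A match is a string of letters, and binding was not measured.
Chac1, chr2:119351029-119351076, plus strand: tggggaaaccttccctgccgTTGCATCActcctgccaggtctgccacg
Got1, chr19:43524680-43524727, minus strand: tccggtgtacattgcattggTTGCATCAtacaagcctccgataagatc
Slc7a11, chr3:50443633-50443699, minus strand, 2 matches: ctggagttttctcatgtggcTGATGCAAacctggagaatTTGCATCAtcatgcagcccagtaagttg
Gars, chr6:55037951-55037998, plus strand: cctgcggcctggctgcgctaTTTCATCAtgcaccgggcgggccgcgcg

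Serine synthesis and mitochondrial one-carbon enzymes rose: 7 of 15 measured passed, all higher in KO, with a list median of 0.37. Mthfd2, the mitochondrial methylene-tetrahydrofolate dehydrogenase, lay at 76.5, 97.5, 101 and 105 CPM in KO against 13.9, 14.8, 12 and 18.1 CPM in Het (log2 fold change 2.69 ± 0.18, adjusted p = 1.34e-06). Aldh1l2, which oxidizes 10-formyl-tetrahydrofolate in mitochondria, lay at 80.4, 39.4, 47.8 and 37.3 CPM in KO and 4.43, 5.82, 3.5 and 5.88 CPM in Het, with KO 1 highest and no overlap (log2 fold change 3.38 ± 0.27, adjusted p = 8.25e-06). Shmt2 and the serine synthesis enzymes Phgdh and Psat1 rose by 1.31 ± 0.10, 1.57 ± 0.14 and 1.66 ± 0.24. Mthfd1l and the cytosolic Mthfd1 rose by 1.10 and 0.37. The third enzyme of serine synthesis, Psph, gave 0.19 ± 0.29 and did not pass, and neither did the cytosolic Shmt1 nor the mitochondrial folate carrier Slc25a32.

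Amino acid supply genes rose as well: 9 of 16 measured members passed, all higher in KO, and the list median was 0.74. Asns, asparagine synthetase, lay at 30.9, 22.4, 27.9 and 21.5 CPM in KO and at 3.42, 1.64, 1.51 and 0.84 CPM in Het (log2 fold change 3.79 ± 0.39, adjusted p = 5.17e-05). Importers rose too. Slc7a5, the light chain of the large neutral amino acid transporter LAT1, lay at 414, 506, 550.1 and 482 CPM in KO against 151, 133, 136 and 132 CPM in Het, without overlap (log2 fold change 1.82 ± 0.11, adjusted p = 8.46e-07). Its heavy chain partner Slc3a2 rose by 0.57 ± 0.08. The cationic amino acid transporter Slc7a1 rose by 2.03 ± 0.12 and the alanine and serine transporter Slc1a4 by 2.30 ± 0.15. The cystine importer Slc7a11 lay at 23, 17.4, 21.5 and 16.4 CPM in KO and 8.15, 8.28, 7.22 and 3.97 CPM in Het (adjusted p = 0.00105). Slc1a5, a related glutamine transporter, gave -0.14 ± 0.34 and did not pass.

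Cytosolic aminoacyl-tRNA synthetases, which charge tRNAs, had the largest share of members called among 36 lists: 16 of 20 rose and none fell (list median 0.46), and 12 to 15 did so with any one library left out. Sars lay at 256, 222, 292 and 275 CPM in KO and 92.9, 101, 91.2 and 97.8 CPM in Het (log2 fold change 1.45 ± 0.11, adjusted p = 5.14e-06). Eprs, the joined glutamyl and prolyl synthetase, lay at 197, 174, 177 and 167 CPM against 68.5, 78.1, 81.5 and 75.3 CPM (log2 fold change 1.24 ± 0.08, adjusted p = 1.18e-06). Gars and Lars rose by 0.83 ± 0.07 and 0.67 ± 0.09. In each of these 4 the KO and Het libraries were fully separate. The 4 that did not pass were Hars, Vars, Farsa and Cars.

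Among 13 mitochondrial chaperones and proteases, 4 rose and none fell (median 0.21). Hspa9, the mitochondrial Hsp70 that drives protein import, lay at 196, 192, 197 and 158 CPM in KO and 85.9, 97.4, 81.1 and 86 CPM in Het (log2 fold change 1.09 ± 0.09, adjusted p = 9.53e-06). Its co-chaperone Dnaja3 rose by 0.48 ± 0.10. Hspe1 and Trap1 rose by 0.44 and 0.68; this count was 2 without KO 1, Het 1 or Het 3. The chaperonin Hspd1, the partner of Hspe1 whose exons overlap it on the other strand, gave 0.14 ± 0.13, and the protease Lonp1 0.21 ± 0.08; neither passed.

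The unfolded protein response of the endoplasmic reticulum (ER) went the other way. Of 15 genes measured, 9 fell and 1 rose, with a median of -0.41, and 8 or 9 fell with any one library left out. Calr, the calcium-binding lectin chaperone calreticulin, lay at 774, 757, 753 and 670.0 CPM in KO and at 1548, 1409, 1483 and 1248 CPM in Het, and every KO library was below every Het library (log2 fold change -0.94 ± 0.08, adjusted p = 1.03e-05). Sdf2l1 was at 78, 80.5, 77.1 and 73.9 CPM in KO and 147, 148, 146 and 134 CPM in Het (log2 fold change -0.89 ± 0.08, adjusted p = 1.52e-05). The disulfide isomerase Pdia6 and the Hsp90 of the ER, Hsp90b1, fell by 0.64 and 0.61 on the log2 scale. Hspa5 (BiP), the master chaperone, lay at 682 to 850.2 CPM in KO and 926 to 1104 CPM in Het (log2 fold change -0.41 ± 0.09, adjusted p = 0.00984). The single rise was Edem1, which marks misfolded glycoproteins for degradation (log2 fold change 0.56 ± 0.10, adjusted p = 0.00256). The sensors Atf6 and Ern1 and the factor Xbp1 did not pass.

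Other subunits and assembly factors of complex III did not fall with Uqcrfs1. Of 15 measured, 3 rose and none fell (median 0.25): the assembly factor Uqcc2 (log2 fold change 0.67 ± 0.12, adjusted p = 0.00244), the subunit Uqcrq (0.57 ± 0.14) and cytochrome b of the mitochondrial genome, mt-Cytb (0.53 ± 0.13). Uqcc2 lay at 31.5, 24.4, 23.5 and 25 CPM in KO and 15.9, 17.5, 16.8 and 15.4 CPM in Het, without overlap. Only 1 of the 3 passed without KO 1. Bcs1l, the translocase that inserts RISP into complex III, gave 0.49 ± 0.17 (adjusted p = 0.0846), and the core subunits Uqcrc1, Uqcrc2 and Cyc1 gave 0.07, 0.29 and 0.25.

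Transcripts of the mitochondrial genome were higher: 8 of 13 protein genes rose and none fell (median 0.49). The count was 4 without KO 1, 5 without KO 2 or Het 2, and 11 with sex as a covariate. The 3 cytochrome oxidase core genes rose most. mt-Co2 lay at 4980, 4667, 4346 and 4041 CPM in KO and 2312, 2149, 2486 and 1845 CPM in Het (log2 fold change 1.04 ± 0.11, adjusted p = 7.04e-05), and mt-Co1 at 13094, 13108, 12020 and 11233 against 7576, 6604, 7529 and 6163 CPM (log2 fold change 0.83 ± 0.10, adjusted p = 1.51e-04). mt-Co3 rose by 0.88 ± 0.11. Among complex I genes of the same genome, mt-Nd1, mt-Nd2, mt-Nd3, mt-Nd4 and mt-Nd4l did not pass, with mt-Nd2 at -0.17 ± 0.15, while mt-Nd5 and mt-Nd6 rose by 0.73 and 0.74. Their difference from the oxidase genes was not tested.

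The nuclear gene with the largest change in the respiratory chain was Cox6a2, the heart and skeletal muscle isoform of a cytochrome oxidase subunit. It lay at 189.7, 124, 139 and 138 CPM in KO and 9.55, 10.7, 12.9 and 14 CPM in Het, with no overlap and KO 1 highest (log2 fold change 3.65 ± 0.25, adjusted p = 3.10e-06). Its exons overlap those of Itgad on the other strand, a gene below the count filter in these libraries (0 to 4.04 CPM in KO, 0.0805 to 1.22 CPM in Het). The isoform of other tissues, Cox6a1, gave 0.28 ± 0.09 and did not pass. In all, 5 of 13 nuclear cytochrome oxidase genes rose and none fell (median 0.31): Cox6a2, Cox7a2l, Cox4i1, Cox8a and Cox6c. Cox7a2l, which links complexes III and IV into supercomplexes, lay at 424, 366, 395 and 399 CPM in KO and 229.5, 267, 254 and 285 CPM in Het (log2 fold change 0.61 ± 0.09, adjusted p = 4.87e-04). Of 37 nuclear complex I genes, 4 rose by 0.32 to 0.46 (Ndufa6, Ndufb5, Ndufa2 and Ndufb11) and none fell (median 0.21), a share of 10.8%; the count was 1 without KO 1, Het 1 or Het 2 and 2 without Het 3.

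Coq4, needed for coenzyme Q synthesis, was called higher (log2 fold change 2.85 ± 0.79) on KO 1 and KO 3 alone. Its levels were 53.2, 3.42, 39.4 and 3.51 CPM in KO and 3.96, 4.35, 3.37 and 2.06 CPM in Het, so that KO 2 and KO 4 lay within the Het range. The call was lost without either of the high libraries.

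Of 21 glycolysis genes measured, 8 rose and none fell (median 0.47), while 13 did not pass, with Eno2 lowest at -2.03 ± 0.92. Gpi1, glucose-6-phosphate isomerase, lay at 553, 423, 424 and 452 CPM in KO and 263, 269.7, 294 and 296 CPM in Het (log2 fold change 0.72 ± 0.10, adjusted p = 4.95e-04). Aldoa was at 784, 495, 508 and 451 CPM in KO and 332, 356, 322 and 269 CPM in Het (log2 fold change 0.81 ± 0.16, adjusted p = 0.00527). In both genes KO 1 was highest, and the other KO libraries were still above all Het libraries. Pfkl, Pgk1, Tpi1, Pgam1, Gapdh and the lactate exporter Slc16a3 rose by 0.47 to 0.85. Ldha gave 0.51 ± 0.16 (adjusted p = 0.0518), and hexokinases Hk1, Hk2 and Hk3 did not pass. The count was 5 without Het 2, Het 3 or Het 4 and 13 with sex as a covariate, and 1 member fell when the 8 KO and Het libraries were fitted alone.

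Of 14 hypoxia-inducible factor targets, 5 rose and none fell (median 0.36), and 3 rose without KO 1 or Het 1. Mxi1, a MYC antagonist, lay at 99.6 to 119.7 CPM in KO and 64.2 to 81.1 CPM in Het (log2 fold change 0.53 ± 0.09, adjusted p = 0.00225). Ero1l, Bnip3 and Pdk1 rose by 0.65, 0.82 and 0.38. Vegfa was at 15.2, 14.1, 12.7 and 12.9 CPM in KO and 3.8, 7.46, 4.88 and 0.917 CPM in Het (log2 fold change 1.68 ± 0.44, adjusted p = 0.0231), a call lost without KO 1 or Het 1. The tricarboxylic acid cycle gave 4 rises of 19 genes and no fall (median 0.17): Ogdh (0.52 ± 0.09), Cs (0.32 ± 0.06), Idh3a (0.41 ± 0.13) and Idh3b (0.26 ± 0.08). Idh3a and Idh3b were no longer called under DESeq2's scaling, and the count was 2 without KO 1, KO 3, Het 3 or Het 4.

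Antioxidant targets of NRF2 gave 6 rises of 16 and no fall (median 0.28), among them Txnrd1 (0.44 ± 0.10), Prdx1 (0.40 ± 0.11), the low-abundance Osgin1 (5.31 to 9.84 CPM in KO, 1.4 to 3.82 CPM in Het) and Gclc (0.29 ± 0.08). This count was among the least stable: it was 1 without KO 2, 2 without Het 2 or Het 4, and 3 without KO 1, KO 4 or Het 1. The classical targets Nqo1 and Hmox1 gave -1.23 ± 0.56 and -0.44 ± 0.34 and did not pass.

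Of 18 BCL2 family and p53 target genes, 3 rose and none fell (median 0.04). Cdkn1a (p21), the cyclin-dependent kinase inhibitor, lay at 142, 169, 173 and 175 CPM in KO and 45.4, 47.8, 42.9 and 79 CPM in Het (log2 fold change 1.61 ± 0.22, adjusted p = 3.77e-04). Ccng1 was at 117, 106, 106 and 112 CPM in KO against 60.1, 61.7, 62.3 and 57.2 CPM in Het (log2 fold change 0.87 ± 0.07, adjusted p = 1.07e-05). Bax, the pore-forming death effector, rose by 0.57 ± 0.10. All 3 were separate between the groups. The p53 regulator Mdm2 and the targets Bbc3 (PUMA) and Phlda3 gave -0.18, 0.08 and 0.02, and the microglial survival genes Mcl1 and Bcl2 gave -0.27 and -0.05; none of these passed.

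Cell cycle genes were not lower in KO: of 35 measured, 5 rose and none fell (median 0.29). Ccnd1, the G1 cyclin D1, lay at 177, 161, 143 and 143 CPM in KO and 82.9, 105, 98.4 and 119 CPM in Het (log2 fold change 0.62 ± 0.11, adjusted p = 0.00279). Mitotic genes were read at low levels. Top2a lay at 20, 13.3, 11.1 and 19.4 CPM in KO and 8.23, 6.07, 4.19 and 5.04 CPM in Het (log2 fold change 1.44 ± 0.36, adjusted p = 0.0172), and Aurkb at 5.08, 4.16, 8.33 and 4.5 CPM against 1.86, 1.8, 1.79 and 1.91 CPM (log2 fold change 1.58 ± 0.36, adjusted p = 0.0115). Ccna2 and Kif11 rose by 1.03 and 1.19. Mki67, the gene of the proliferation antigen Ki-67, was at 5.23, 5.56, 6.49 and 8.63 CPM in KO and 1.79, 3.03, 3.78 and 2.14 CPM in Het and did not pass (1.27 ± 0.40, adjusted p = 0.0531). The replication genes Pcna, Mcm2, Mcm3 and Mcm4 gave 0.04 to 0.24. The count was 3 without KO 1, KO 2, Het 2 or Het 4, and without Het 3, the Het library with the highest summed level, 2 rose and 1 fell; with sex as a covariate 8 rose and 1 fell. In bulk RNA a larger share of dividing cells and more of these transcripts per cell cannot be told apart.

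Some markers of microglial identity were lower in KO. Of 20 homeostatic markers 7 fell and none rose (median -0.12), a share of 35.0%, and 4 fell without Het 2. Selplg, the P-selectin ligand PSGL-1, lay at 1685, 1894, 1779 and 1990 CPM in KO and 3901, 4639, 3896 and 3860 CPM in Het (log2 fold change -1.15 ± 0.08, adjusted p = 1.85e-06). Olfml3 was at 2392, 2345, 2377 and 2128 CPM in KO and 3980, 3884, 3776 and 3549 CPM in Het (log2 fold change -0.72 ± 0.06, adjusted p = 1.08e-05). Tmem119, a surface marker of microglia, lay at 2966, 3240, 3164 and 3322 CPM in KO and 4519, 4885, 4371 and 4798 CPM in Het (log2 fold change -0.55 ± 0.07, adjusted p = 1.53e-04). All 3 sets of libraries were fully separate, as were those of Gpr165 (-1.58 ± 0.24). Smaller falls were seen for Tgfbr1 and Sparc (-0.33 and -0.24). The identity factor Sall1, the purinergic receptor P2ry12 and the fractalkine receptor Cx3cr1 gave 0.15 ± 0.07, 0.07 ± 0.10 and 0.13 ± 0.10, and their KO and Het libraries overlapped.

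Of the CSF1R axis and identity factors, 3 of 13 fell and none rose (median -0.11). Tgfb1, the cytokine that maintains microglia, lay at 398, 406, 379.7 and 408 CPM in KO and 511, 537, 499 and 545 CPM in Het (log2 fold change -0.39 ± 0.06, adjusted p = 7.57e-04). Csf2rb, a cytokine receptor chain, fell by 0.41 on the log2 scale. Csf1r, which encodes the target of PLX3397, was at 12164 to 12940 CPM in KO and 12926 to 14452 CPM in Het and did not pass (-0.11 ± 0.06). Spi1 (PU.1) and Irf8 gave -0.05 and -0.04.

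Disease-associated microglia (DAM) genes split: 7 of 27 measured rose and 7 fell (median 0.07). Those that rose were Cst7, Clec7a, Lpl, Ctsb, Ank, Cadm1 and Ctsd, and those that fell were Ccl6, Axl, Cd52, Cd68, B2m, Tyrobp and Timp2. Ctsb, the lysosomal protease cathepsin B, lay at 6552, 6340, 6696 and 6109 CPM in KO and 4186, 4371, 3757 and 4496 CPM in Het (log2 fold change 0.61 ± 0.07, adjusted p = 1.34e-04). Cst7, cystatin F, was at 47.8, 37.8, 31.6 and 38.6 CPM against 20.3, 18.6, 15.8 and 18.6 CPM (log2 fold change 1.09 ± 0.20, adjusted p = 0.0028). In the other direction the chemokine Ccl6 lay at 21.2, 30.7, 27.4 and 23.4 CPM in KO and 86.5, 89.3, 77.4 and 70.4 CPM in Het (log2 fold change -1.66 ± 0.16, adjusted p = 2.37e-05). Apoe, Spp1, Itgax and Gpnmb gave -0.96, -0.93, -0.37 and 0.41, each with an SE of at least 0.22, and did not pass.

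Complement and phagocytosis genes were mostly lower: 9 of 17 fell and 3 rose (median -0.40), and 7 to 9 fell with any one library left out. The 3 chains of C1q, which opens the classical complement pathway, fell together in KO. C1qb lay at 2279, 2447, 2539 and 2389 CPM in KO and 3839, 4533, 4156 and 4788 CPM in Het (log2 fold change -0.84 ± 0.07, adjusted p = 9.91e-06). C1qa and C1qc fell by 0.52 and 0.46 on the log2 scale, each with an SE under 0.1. The high-affinity IgG receptor Fcgr1 lay at 483, 539, 599 and 539 CPM in KO and 789, 786, 769.6 and 830.0 CPM in Het (log2 fold change -0.56 ± 0.07, adjusted p = 2.12e-04). Among receptors for dying cells and their ligands, Axl fell (-1.16 ± 0.29) and Mertk and the bridging ligand Gas6 rose (0.28 ± 0.07 and 0.77 ± 0.10). Gas6 was at 373, 269, 288 and 265 CPM in KO and 188, 180.1, 163 and 168 CPM in Het, without overlap.

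Lysosomal genes moved both ways, 4 of 23 higher and 6 lower (median 0.17). Ctsh, a cathepsin with aminopeptidase activity, lay at 526, 506, 583 and 548 CPM in KO and 956, 1046, 949 and 1044 CPM in Het (log2 fold change -0.89 ± 0.06, adjusted p = 3.10e-06). Beta-glucuronidase, Gusb, was at 320.4, 316, 331 and 315 CPM in KO and 494, 512, 499.7 and 538 CPM in Het (log2 fold change -0.67 ± 0.06, adjusted p = 1.33e-05). Ctsc, Ctss and Hexa fell by 0.66, 0.57 and 0.41. Among those higher were Ctsb (above), Ctsd and the proton pump subunit Atp6v1a, by 0.32 and 0.38 for the latter pair.

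Interferon-stimulated genes fell: 12 of 22 passed, all lower in KO, and every member measured had a fold below 0 (median -0.60). With any one library left out, 10 to 12 fell. Oas1a, an antiviral oligoadenylate synthetase, lay at 17.7, 13.7, 13.7 and 20.2 CPM in KO and 40.5, 36.2, 45.9 and 45.6 CPM in Het (log2 fold change -1.37 ± 0.18, adjusted p = 2.60e-04). Ifi204 was at 26.5, 27.3, 24.8 and 29.6 CPM in KO and 50, 55.1, 65.3 and 69 CPM in Het (log2 fold change -1.15 ± 0.19, adjusted p = 0.00159). KO and Het were separate in both genes, while WT 3 lay below the other WT libraries at 32.6 CPM for Ifi204. The regulators Irf7 and Irf1 fell by 1.18 and 0.76 on the log2 scale. Isg15, Ifit2, Rsad2 and Cxcl10 gave -0.23, -0.21, -0.28 and -0.36 and did not pass.

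Antigen presentation genes showed 5 falls of 15 and no rise (median -0.40). H2-DMa, a chain of the peptide-exchange factor of MHC class II, lay at 116, 125, 118 and 108 CPM in KO and 260.0, 306, 285 and 290.0 CPM in Het without overlap (log2 fold change -1.29 ± 0.07, adjusted p = 5.43e-07). Its exons overlap Brd2 on the other strand, which gave -0.54 ± 0.16 (adjusted p = 0.0364). Cd74, the invariant chain, was at 22.7, 25.1, 24.8 and 35.7 CPM in KO and 59.9, 64.1, 64.9 and 59 CPM in Het (log2 fold change -1.20 ± 0.16, adjusted p = 3.28e-04). The class I light chain B2m and the peptide transporter Tap1 fell by 0.47 and 0.41. The classical class II genes H2-Aa, H2-Ab1 and H2-Eb1 gave -0.44 ± 0.26, -0.40 ± 0.13 and -0.37 ± 0.26 and did not pass.

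Of 20 cytokine, chemokine and NF-kB genes, 6 fell and none rose (median -0.54), and 13 fell with sex as a covariate. Ccl2, which attracts monocytes, lay at 6.67, 8.98, 13.6 and 13.4 CPM in KO and 19.8, 27.1, 26.4 and 42.2 CPM in Het (log2 fold change -1.44 ± 0.26, adjusted p = 0.00251). Ccl12 was at 22.7, 25.1, 24.6 and 24 CPM against 32.8, 44.3, 37.6 and 56.1 CPM (log2 fold change -0.83 ± 0.15, adjusted p = 0.00276), and Ccl5 and Nfkb1 fell by 1.23 and 0.30 on the log2 scale. Het 4 was the highest Het library for Ccl2 and Ccl12. Il1b, Il6 and Tnf gave -1.26 ± 0.58, -0.92 ± 0.37 and 0.20 ± 0.47 and did not pass.

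Immediate early genes, which rise within minutes of a stimulus and also when tissue is dissociated, had the lowest median of any non-marker list (-0.88), with 5 of 21 lower in KO and none higher. They also rested on single libraries. Summed over the list, Het 4 held 18626 CPM, the other Het libraries 4245 to 5919 CPM, KO 1 held 2681 CPM and the other KO libraries 6124 to 8516 CPM. Nr4a1 lay at 7.81, 9.78, 17.1 and 18.1 CPM in KO and 23.8, 37.6, 34 and 186 CPM in Het, and Fosb at 6.22, 17.7, 27.7 and 27 CPM in KO and 36.7, 96.6, 47.2 and 229 CPM in Het; both were called lower (-2.42 ± 0.68 and -2.38 ± 0.65). The count was 3 without KO 1, KO 2, KO 3 or Het 4, 16 with sex as a covariate, and 0 lower with 2 higher when Het 4 and KO 1 were both left out. The part of tissue handling in the list was not tested.

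Few members of the cholesterol lists were called. Of 20 cholesterol synthesis genes 1 rose, the sterol desaturase Sc5d (27.3, 33.4, 29.7 and 26.5 CPM in KO, 15.6, 19.5, 17.7 and 17.6 CPM in Het; log2 fold change 0.73 ± 0.11, adjusted p = 5.79e-04), and none fell (median 0.00); 3 rose without Het 1, and 2 without KO 1 or Het 4 or with sex as a covariate. Of 10 cholesterol efflux and LXR target genes 1 fell, Lpcat3 (log2 fold change -0.53 ± 0.10, adjusted p = 0.00291), while 2 rose without Het 1 and 2 fell without KO 4. The cholesterol exporters Abca1 and Abcg1 gave 0.28 and 0.13 and did not pass.

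**Figure D3:**
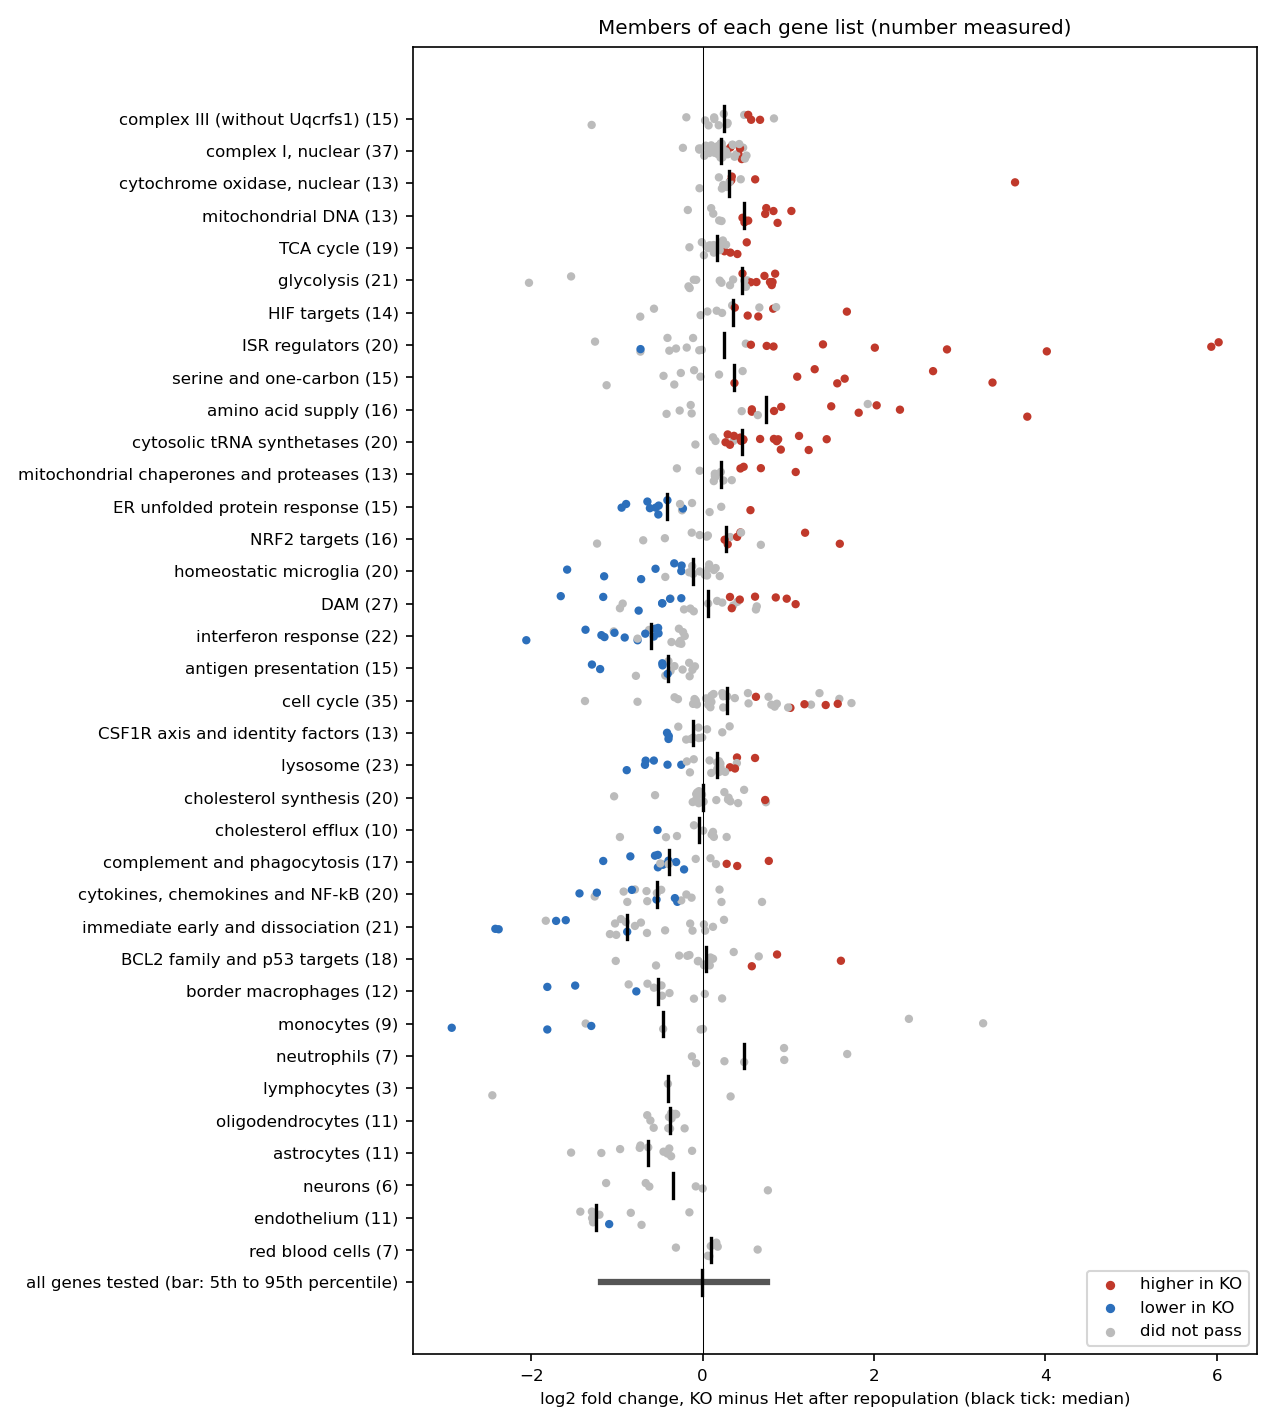
Log2 fold change of KO over Het (x axis) for each measured member of 36 gene lists (rows, number measured in brackets), red and blue for members higher and lower in KO, grey for those that did not pass, with a black tick at the list median; the bottom row gives the median and the 5th to 95th percentile of all 13388 genes. Amino acid supply (median 0.74) and tRNA synthetases (0.46) lie to the right, and interferon response (-0.60) and endothelium (-1.24) to the left.

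Several of the largest falls lay outside these lists. Il7r, the alpha chain of the interleukin 7 receptor, lay at 10.4, 12, 9.61 and 15.8 CPM in KO and 70.8, 70.8, 69.9 and 45.5 CPM in Het; Het 4 was lowest of the Het libraries and still above every KO library (log2 fold change -2.42 ± 0.18, adjusted p = 4.16e-06). The chemokine gene Ccl9 was at 25.2, 31.8, 18.4 and 26.6 CPM in KO and 127, 156, 96.9 and 129 CPM in Het (log2 fold change -2.31 ± 0.21, adjusted p = 1.85e-05). Ipcef1 lay at 3.49, 7.21, 5.93 and 7.33 CPM in KO and 25.7, 28, 27.9 and 32.8 CPM in Het (log2 fold change -2.25 ± 0.19, adjusted p = 1.19e-05). Cfb, complement factor B, Klhdc8b and the ribonuclease gene Rnase6 fell by 2.71, 2.47 and 2.11 on the log2 scale, each with separate groups. Lox, the collagen cross-linking enzyme lysyl oxidase, was the largest called rise outside the lists. That ranking covered genes with a mean log2 CPM of at least 3 and left out Gm-numbered, Rik and accession-like symbols. Lox lay at 87.3, 85.2, 76.8 and 91.9 CPM in KO and 8.15, 9.35, 9.69 and 16.2 CPM in Het (log2 fold change 2.97 ± 0.29, adjusted p = 3.03e-05).

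Other large differences rested on a few libraries. Kbtbd11 lay at 3.42, 54.9, 6.73 and 2.67 CPM in Het, with Het 2 far above the rest, and at 0.481 to 1.15 CPM in KO (-4.24 ± 1.23). Zhx2 was high in Het 1 and Het 3 (96.3, 8.36, 55.9 and 10.1 CPM against 4.93 to 8.68 CPM in KO), Glb1l in Het 4 (24.5, 19.9, 6.39 and 62.5 CPM against 4.25 to 6.54 CPM) and Atp1b1 in Het 1 and Het 3 (46.8, 6.89, 23.7 and 10.3 CPM against 3.04 to 7.73 CPM). Atp1b1 is also expressed in the choroid plexus, whose marker sum was highest in the same Het libraries. The part of choroid plexus cells in the Atp1b1 difference was not tested. Ttc7 was called higher (adjusted p = 0.0206) but lay at 550.3, 187, 485 and 95.8 CPM in KO and up to 175 CPM in WT. In the fit that also held naive libraries, scaled slightly differently, repopulated KO ranged from 94.2 to 541 CPM. Repopulated Het ranged from 68.8 to 86.8 CPM there, without overlap. These 5 calls, Kbtbd11, Zhx2, Glb1l, Atp1b1 and Ttc7, were each lost under at least 1 alternative.

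Markers of other cells were summed per library. Border macrophage markers summed to 403 to 690 CPM in KO and 678 to 1010 CPM in Het, with Het 4 within the KO range. Stab1 alone made up most of each sum (352 to 641 CPM in KO, 609.8 to 912 CPM in Het). Of the list, 3 of 12 fell (Clec12a, Siglec1 and Stab1; median -0.52) while the defining markers Mrc1 and Lyve1 gave -0.10 ± 0.34 and -0.57 ± 0.73. That count was 1 without KO 1, KO 2, Het 2 or Het 3. Monocyte markers summed to 23.4 to 52.4 CPM in KO and 32.8 to 70.3 CPM in Het. Of 9 measured, 3 fell (S100a4, Plac8 and Fn1), none rose and 6 did not pass. Only 1 fell without KO 1 or with sex as a covariate. S100a4 lay at 0.0758 to 0.367 CPM in KO, around the level of 3 counts. Ccr2, which did not pass, lay at 2.08 to 4.58 CPM in KO and 1.72 to 5.02 CPM in Het. Chil3 lay at 0, 1.65, 8.41 and 0.687 CPM in KO and 0.137 to 0.328 CPM in Het. Vcan was at 23.9 CPM in KO 3 and 0.489 to 2.61 CPM in the other KO and Het libraries. Endothelial markers summed to 65.3 to 147 CPM in KO and 121 to 293 CPM in Het (median -1.24), with 1 of 11 lower, Pecam1 (log2 fold change -1.09 ± 0.19, adjusted p = 0.00215), and 4 lower without KO 1 or 5 without Het 2. Oligodendrocyte, astrocyte, neuron, neutrophil, lymphocyte and red blood cell lists had no called member. Lymphocyte markers summed to 18.6 to 21.3 CPM in KO and 24.4 to 32.0 CPM in Het, without overlap. Choroid plexus genes, a list added after these data were seen, summed to 40.4 to 251 CPM in KO and 15.7 to 1332 CPM in Het. No marker of these lists was at 0 in all 12 libraries, and the part of such cells in the falls of the interferon, antigen presentation and chemokine genes was not tested.

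**Figure D4:**
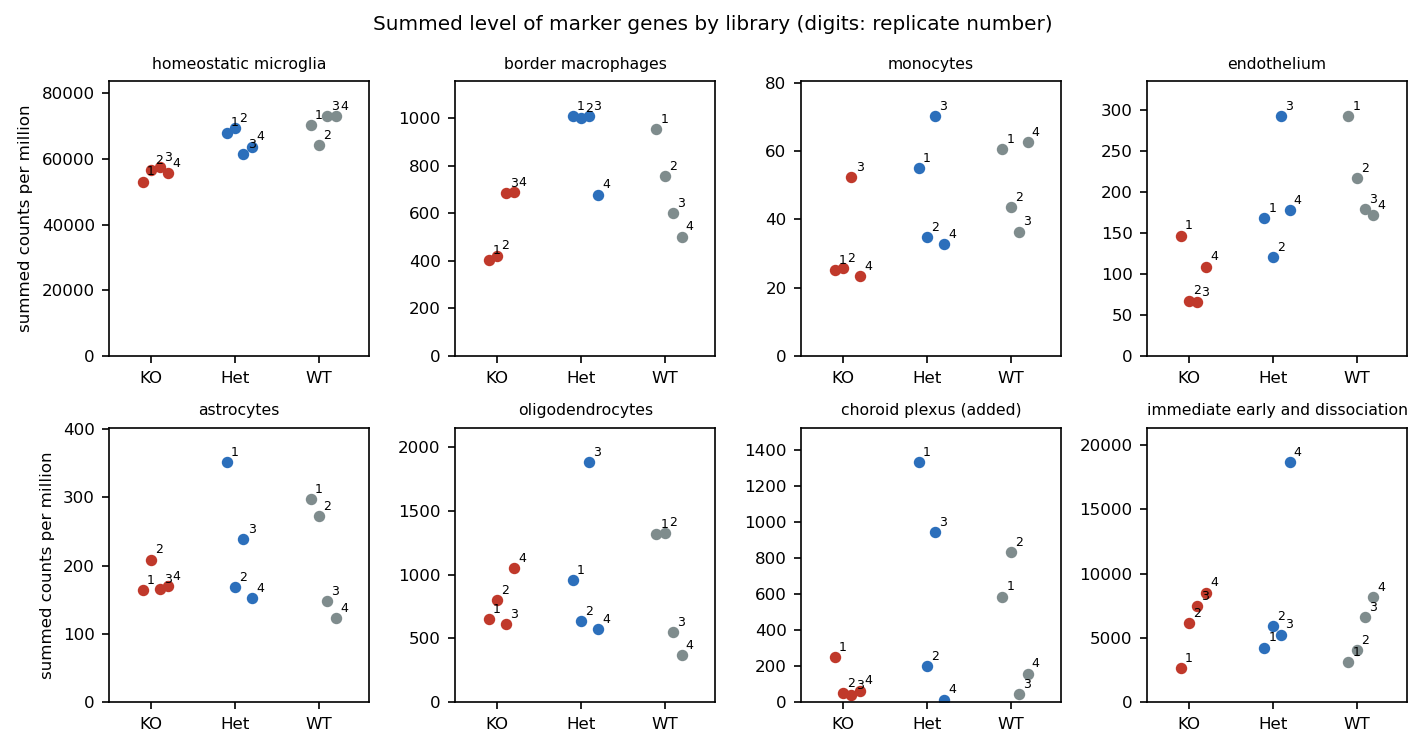
Summed CPM of marker lists (y axes, from 0) in each KO, Het and WT repopulation library, with the replicate number beside each point. The homeostatic marker sum is lower in the 4 KO libraries (53043 to 57381 CPM) than in the 4 Het libraries (61541 to 69444 CPM). Of its 20 members 7 were called lower and 13 did not pass. Choroid plexus sums run from 15.7 to 1332 CPM between Het libraries, and Het 4 stands apart for immediate early genes at 18626 CPM.

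The same KO and Het contrast was set beside that of naive adult mice, to ask where repopulation changed the difference. The naive libraries used were 6 KO and 7 Het of middle depth (5.5 to 15 M counts), in which Gm26917 and Yam1 took at least 1% of counts, so that condition and library kind cannot be told apart. Of 15043 genes tested for a different KO-Het difference, 63 (0.419%) passed, 30 higher (0.199%) and 33 lower (0.219%) after repopulation. The count was 14 without Het 2, 16 without KO 2 or KO 3, 19 without KO 4, 21 without Het 1 and 25 without Het 3, and 93 (35 higher, 58 lower) against naive libraries with a low share of Gm26917 and Yam1. In the naive libraries alone, 1591 genes (10.6%) differed between KO and Het, 5.62% higher and 4.96% lower. Most of the leading genes did not differ detectably: Atf5 gave 3.44 ± 0.25 in naive mice (difference 0.58 ± 0.37), Cox6a2 2.90 ± 0.26 (0.75 ± 0.40), Lox 3.62 ± 0.29 (-0.64 ± 0.44) and Mthfd2 2.03 ± 0.31 (0.66 ± 0.48). Trib3 gave 2.40 ± 0.51 in naive mice and a difference of 3.53 ± 0.83 that did not pass (adjusted p = 0.0622).

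Lag3 and Slamf8, cell surface receptors of immune cells, differed between the conditions in all 12 alternatives tried. Lag3 ranged from 307 to 367 CPM in the repopulated KO libraries and from 811 to 998 CPM in Het, and these were separate. In naive mice it ranged from 124 to 327 CPM in KO and from 159 to 279 CPM in Het, and these overlapped. The KO-Het difference was lower after repopulation by 1.62 ± 0.27 on the log2 scale (adjusted p = 0.00878). Slamf8 ranged from 10.6 to 14.4 CPM in repopulated KO and from 36.9 to 49.7 CPM in Het libraries, against 9.94 to 16.5 CPM and 11.7 to 19.4 CPM in naive KO and Het, a difference of -1.55 ± 0.25 (adjusted p = 0.00807). Against naive libraries with a low share of those non-coding RNAs, as in repopulation, the differences were -1.84 for Lag3 and -1.85 for Slamf8.

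Of the 119 genes named for KO against Het, 7 had a KO-Het difference that passed between conditions, all lower after repopulation: Selplg (-0.88 ± 0.14), Calr, Gusb, Olfml3, Fcgr1, Pdia6 and Cd68 (-0.75 to -0.65). None of the 7 was called lower in naive mice. With the naive libraries of the low non-coding kind Olfml3 passed at -0.51, while Cd68, at -0.58, and the other 5, at -0.51 to -0.28, did not. Hist2h2ac lay at 0.522 to 2.18 CPM in repopulated KO, at 0.0676 to 0.3 CPM in repopulated Het, around the level of 3 counts, and at 19.9 to 36.5 CPM in naive KO libraries, and mt-Rnr2, the large mitochondrial ribosomal RNA, at 2526 to 3275 CPM and 106245 to 190050 CPM. Neither passed against naive libraries of the low non-coding kind. There Btg2, Egr2 and Ppp1r10 gave -0.16, -0.70 and 0.11, against 2.59, 2.35 and 2.31 with the middle-depth libraries, and Hist1h1e and Fbxo9 gave 0.70 and -0.95. Fasn, fatty acid synthase, which fell after repopulation (28.5 to 47.9 CPM in KO, 65.1 to 93.7 CPM in Het), gave -1.26 there (adjusted p = 0.0566) against -1.64 ± 0.28, and passed with all naive libraries averaged (-1.39, adjusted p = 0.0178). For the interferon, antigen presentation and C1q genes, no member's difference between conditions passed, although none of them was called lower in naive mice. In simulated data the test between conditions recovered 29% of 2-fold changes, against 64% for KO against Het after repopulation. A gene that did not pass between conditions can therefore still differ.

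**Figure D5:**
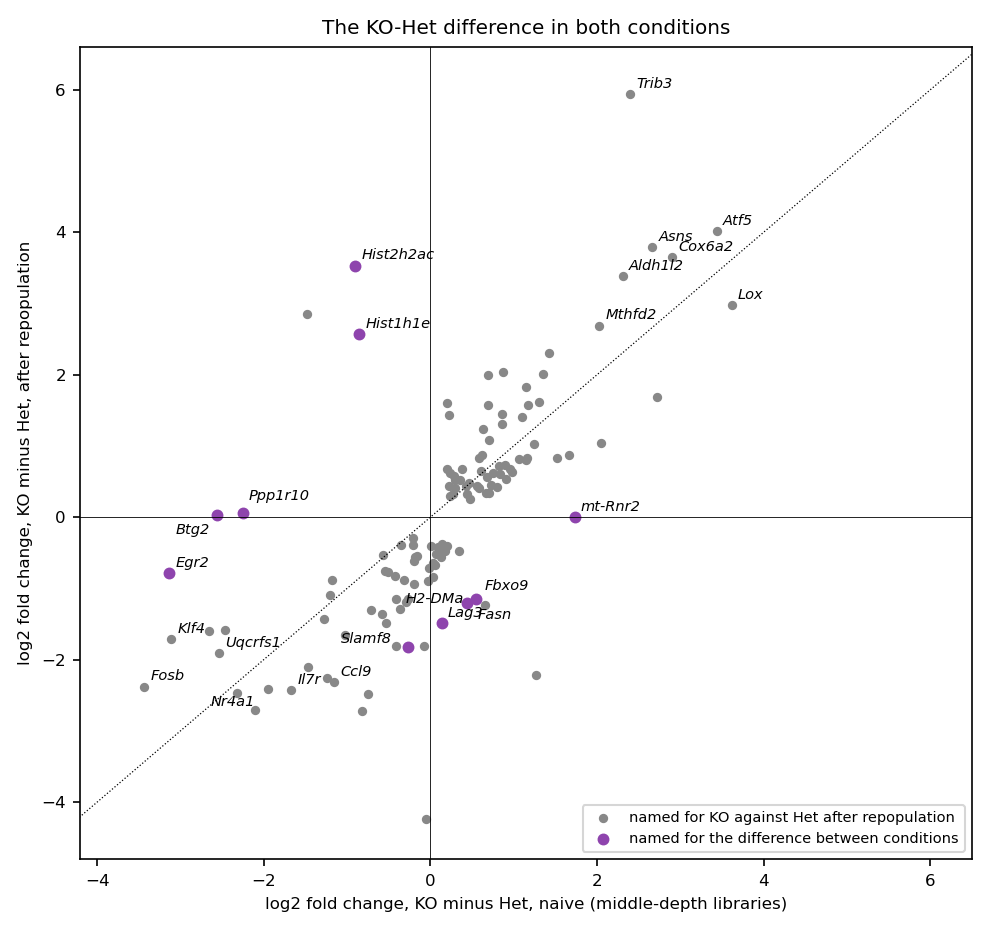
Log2 fold change of KO over Het after repopulation (y axis) against the same in naive middle-depth libraries (x axis) for the genes named in the text, with equality dotted and zero lines thin. Atf5 and Cox6a2 are high and Uqcrfs1 is low on both axes, while Lag3 and Slamf8 lie below 0 after repopulation and near 0 in naive mice (0.14 and -0.27).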

How the data were processed

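Gene counts were taken as the authors deposited them, 1 table of whole-number counts per gene for 64 libraries; the submitters' processing notes list the build GRCm38 and the tools Salmon 1.5.2, STAR 2.6.1d, bcl2fastq 2.20 and Trim Galore 0.6.7, with no order, and which tool counted, and whether by strand, is not given in the sources used here. Per the labels, libraries were made with a stranded total RNA kit from 5 to 10 ng of RNA. Of 45708 rows, filterByExpr (minimum count 10, minimum total 15) kept 13388 in the 12 repopulation libraries. These were fitted with edgeR 4.0.16 (TMM, robust quasi-likelihood test, 1 mean per group, default prior count, two-sided, R 4.3.3). The threshold was a Benjamini-Hochberg adjusted p under 0.05. The same fit on 15043 genes tested the KO-Het difference between repopulation and naive adult mice. Library measures were compared by exact permutation tests. Named genes were Uqcrfs1, the 12 largest called rises and 12 largest called falls, and the 5 largest differences between conditions in each direction. These rankings took genes whose mean log2 CPM was 3 or more and left out Gm-numbered, Rik and accession-like symbols. From every list its called members were ranked by p and at most 4 were named. Other list members are named with values. Gene lists and comparisons were chosen with earlier results of these data known. Alternatives were DESeq2 1.42.0 scaling and test, no filter, other sets of libraries, a replicate block, sex and leaving out each library. Annotation was GENCODE vM21. Scripts were tested on simulated data. The floor of 3 counts covers counting error only, and standard errors come from the fit and include the spread between libraries. Some list members are not reported by name here.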

Additional observations from a re-analysis of the deposited data

Results flagged for a closer look

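In 23 of 357 groups of 4 libraries, 1 library stood apart from the other 3 by Dixon's criterion for the gap to the nearest library over the range, and chance gives about 5% of groups. Among KO libraries these were Atf5 in KO 1 (259 CPM, against 167 to 179 CPM in the others), Sesn2 in KO 1 (31.5 CPM, against 67.2 to 77.2 CPM in the others) and Cox4i1 in KO 1 (405 CPM, against 360 to 366 CPM in the others). Further ones were Ogdh in KO 3 (202 CPM, against 227 to 232 CPM in the others), Pfkl in KO 1 (333 CPM, against 255 to 266 CPM in the others) and Hspa9 in KO 4 (158 CPM, against 192 to 197 CPM in the others). Further ones were Olfml3 in KO 4 (2130 CPM, against 2350 to 2390 CPM in the others). Among Het libraries these were Uqcrfs1 in Het 4 (35.2 CPM, against 29.2 to 29.4 CPM in the others), Il7r in Het 4 (45.5 CPM, against 69.9 to 70.8 CPM in the others) and Shmt2 in Het 4 (27.2 CPM, against 23.2 to 23.5 CPM in the others). Further ones were Sdf2l1 in Het 4 (134 CPM, against 146 to 148 CPM in the others), Selplg in Het 2 (4640 CPM, against 3860 to 3900 CPM in the others) and Lpcat3 in Het 4 (181 CPM, against 211 to 215 CPM in the others). Further ones were Siglec1 in Het 4 (18.2 CPM, against 29.4 to 30.6 CPM in the others) and Stab1 in Het 4 (610 CPM, against 899 to 912 CPM in the others). Among WT libraries these were Trib3 in WT 3 (1.76 CPM, against 0.364 to 0.488 CPM in the others), Uqcrq in WT 3 (50.2 CPM, against 36.6 to 37.8 CPM in the others) and Bnip3 in WT 2 (22 CPM, against 28.8 to 30.2 CPM in the others). Further ones were Shmt2 in WT 4 (29.4 CPM, against 24 to 24.7 CPM in the others), Hspe1 in WT 4 (82.1 CPM, against 66.9 to 68.5 CPM in the others) and Gclc in WT 3 (72.2 CPM, against 62.1 to 62.6 CPM in the others). Further ones were Cd68 in WT 4 (739 CPM, against 628 to 638 CPM in the others) and Nfkb1 in WT 1 (259 CPM, against 230 to 233 CPM in the others). Het 4 was the library apart in 7 of them.

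By a test of the difference itself (edgeR), the signed log2 value of KO minus Het was higher after repopulation than in naive mice for Hist2h2ac (4.44 ± 0.51), Hist1h1e (3.43 ± 0.74), Btg2 (2.59 ± 0.49), Egr2 (2.35 ± 0.46) and Ppp1r10 (2.31 ± 0.36). For Btg2, Egr2 and Ppp1r10 the KO-Het value was nearer 0 after repopulation (0.03, -0.79 and 0.06) than in naive mice (-2.56, -3.13 and -2.25). Repopulated Het libraries held 0.0676 to 0.300 CPM of Hist2h2ac, around the level of 3 counts, so its fitted value depends on the prior count and is no bound. The signed value was lower for mt-Rnr2 (-1.73 ± 0.23), Fbxo9 (-1.69 ± 0.35), Fasn (-1.64 ± 0.28), Lag3 (-1.62 ± 0.27) and Slamf8 (-1.55 ± 0.25). It was also lower for Calr (-0.753 ± 0.16), Pdia6 (-0.679 ± 0.14), Selplg (-0.882 ± 0.14), Olfml3 (-0.702 ± 0.14), Cd68 (-0.65 ± 0.15), Gusb (-0.727 ± 0.15) and Fcgr1 (-0.686 ± 0.15), genes named for KO against Het. Only Lag3 and Slamf8 passed in all 12 alternatives.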

How the results depend on the processing

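Of the 119 genes named for KO against Het, 61 kept their call under all alternatives and 58 lost it under at least 1; none changed direction. The count of 1938 genes was 854 (395 higher, 459 lower) when all 64 libraries were fitted with a mean per group and batch, and 1437 to 1727 with 1 library left out. DESeq2's test gave 2604, no filter 1522 and sex as a covariate 1927. Replicate numbers did not pair the libraries: same-numbered KO and Het libraries correlated at 0.105, 0.0176, -0.208 and 0.0452 in their deviations from the group means, and with the replicate number as a block 1673 genes passed (771 higher, 902 lower). The 63 genes whose KO-Het difference changed between conditions were 93 against naive libraries with a low share of Gm26917 and Yam1, 69 with DESeq2's scaling, 34 without a filter, 15 with all naive libraries averaged over batches and 14 to 62 with 1 library left out. Against the first of these, Btg2 and Egr2 reversed to -0.16 and -0.70; the cause was not tested. Genes near 3 counts in a library, such as Chac1 in Het, have levels that the depth of 11.6 to 16.3 M counts leaves uncertain.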

Other observations

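The families and genes here were chosen after their values were seen. Cytosolic ribosomal protein genes were higher in KO almost as a whole: 80 of 86 measured rose and 1, Rps4l, fell (median log2 fold change 0.66, against 6.86% of all genes higher), and 77 rose when Het 4 and KO 1 were left out together. Elongation factor genes gave 5 rises of 7 (median 0.76) and initiation factor genes 16 of 46 (median 0.24). Without Het 4 and KO 1, elongation factors gave 5 rises and initiation factors 12 rises and 1 fall. Mitochondrial ribosomal protein genes gave 5 rises of 77 (median 0.21), a share near that of all genes. Genes with an H2 (histocompatibility) symbol, taken by symbol alone, gave 12 falls of 22 and chemokine genes 8 of 18. Neither family had a rise (medians -0.60 and -0.78). Without Het 4 and KO 1 the falls were 7 and 6.

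The smallest p-values outside the naming rule belonged to falls. Tmem176a lay at 37.3 to 41.2 CPM in KO and 129 to 131 CPM in Het (log2 fold change -1.70 ± 0.06, adjusted p = 1.69e-08, edgeR quasi-likelihood test). Its neighbour Tmem176b, whose exons overlap it in part on the other strand, gave -1.58 ± 0.06. Within the overlap their reads can be told apart only by strand. H2-Oa and H2-Ob, the chains of the inhibitor of the class II peptide exchange factor, fell by 1.77 and 1.66 on the log2 scale. Ang, Igfbp4 and Serpinf1 fell by 1.31, 1.90 and 1.69. Exons of Ang overlap those of Rnase4 on the same strand, so strand cannot tell their reads apart in the overlap.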
